A study of Bos taurus with 60 samples.

Results

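The 100 genes whose endometrial mRNA abundance fell most closely as that of MX2 rose were followed across 60 inseminated heifers. They were chosen from 12812 eligible genes, out of 14363 genes tested and 24616 genes in the table. MX2 (ENSBTAG00000008471) encodes an interferon-induced GTPase of the antiviral response. Each gene's log2 CPM (counts relative to the TMM-scaled library size, with a prior count of 2) was correlated with those of MX2 over all heifers. The genes with the most negative Pearson r were kept if their mean log2 CPM was at least 1 and they were not among the 100 most abundant genes. The measured values of these same heifers therefore chose the genes, and the correlations below describe that choice and carry no test.

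The heifers were synchronised, nulliparous, crossbred beef animals fed a concentrate-based diet. For 30 days before insemination the diet carried a partly rumen-protected, fish oil-based product rich in n-3 polyunsaturated fatty acids (PUFA) or, as the control (CON), a rumen-protected source of palmitic acid, so both diets held added fat. After insemination each heifer stayed on its high plane of nutrition or was moved to a low plane, on which the fat supplement was kept at its earlier level, for 16 days, after which endometrium was taken. This gave 14 CON_High, 14 CON_Low, 17 PUFA_High and 15 PUFA_Low heifers by the labels of their libraries. The deposited design text gives 17 n-3 PUFA heifers for the low and 15 for the high plane instead, so the 7 diet comparisons without covariates were also run by edgeR with the planes of these heifers exchanged. The study's methods state group sizes as the labels do, while the pregnancy classes listed there for n-3 PUFA heifers add up as in the design text. Tissue was cut from the horn on the side of the corpus luteum, free of myometrium, and holds a mixture of cell types, so fewer cells of a type and less RNA per cell cannot be told apart. Which heifers were pregnant was not used here. Total counts lay between 9635801 and 13943813 for each heifer (median 11556278), and the lowest count of any of the 100 genes in any heifer was 3, with 96 genes at 10 or more counts in every heifer.

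In ruminants, the elongating conceptus secretes interferon tau around the time of maternal recognition of pregnancy. It binds type I interferon receptors in the endometrium, and STAT transcription factors then raise a wide set of interferon-stimulated genes, MX2 among them. The same signal restrains the luteolytic pulses of prostaglandin, so that the corpus luteum is kept. The counts carry Ensembl identifiers, which could not be paired with gene names here apart from MX2, whose name came with the selection rule. Roles of the 100 genes, markers of endometrial cell types and other interferon-stimulated genes were therefore not analysed here, and the description below calls the genes by their relation to MX2 alone.

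MX2 itself took values in a lower and an upper range that were far apart. In 14 heifers it lay between 2.81 and 18.03 CPM, in the other 46 between 161 and 2372 CPM, and no heifer lay between. On the log2 scale these ranges were 1.58 to 4.19 and 7.33 to 11.21. Both ranges were present in every dietary group, with 3 of 14 CON_High, 4 of 14 CON_Low, 3 of 17 PUFA_High and 4 of 15 PUFA_Low heifers in the lower one.

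The median MX2 abundance was 702 CPM in CON_High (range 2.81 to 2372), 866 CPM in CON_Low (8.91 to 2098), 796 CPM in PUFA_High (5.44 to 1743) and 727 CPM in PUFA_Low (5.31 to 2262). The ranges of all 4 groups overlapped between 8.91 and 1743 CPM. In n-3 PUFA heifers mean MX2 was 0.86 log2 units lower on the low than on the high plane, which was within the spread between heifers (p = 0.396 in a two-sided permutation test, 0.793 after adjustment over 16 tests of library measures and MX2). The other 3 differences between groups in MX2 were between -0.29 and 0.30 log2 units, each with an adjusted p of 0.909 in the same permutation tests.

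**Figure D1:**
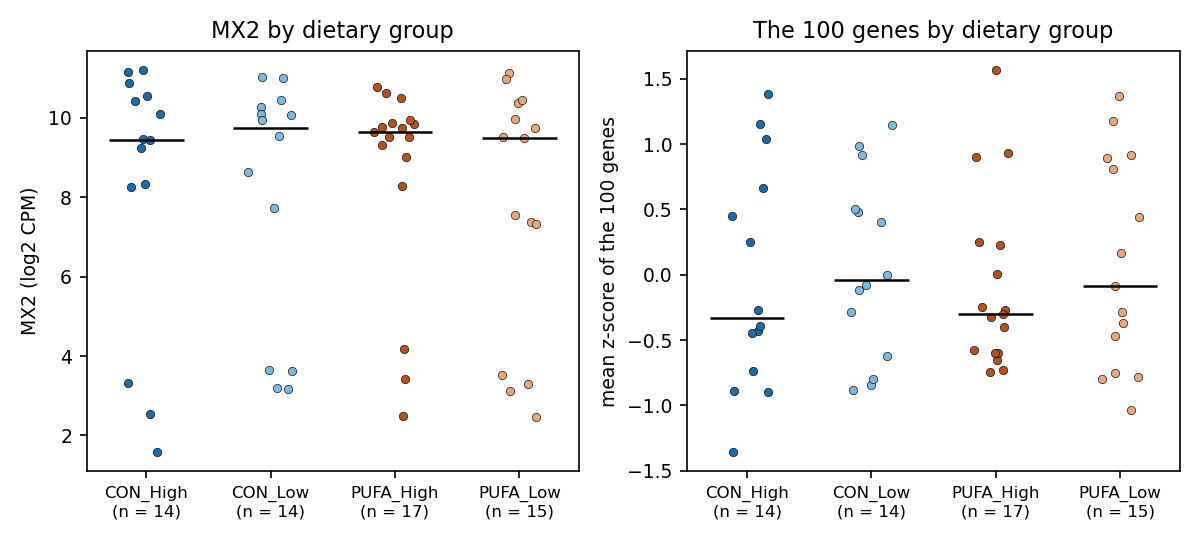
MX2 in log2 CPM (left) and the mean z-score of the 100 genes (right, no unit) for each heifer by dietary group, with 1 point per heifer and a line at the group median. MX2 fell between 1.58 and 4.19 or between 7.33 and 11.21 in every group, and the groups overlapped in both measures.

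Among the 12812 eligible genes, r with MX2 had a median of -0.03 and was below 0 in 53.7% of them. The 100 genes had values from -0.777 to -0.626 (median -0.662). The positive side of the distribution reached further: 261 eligible genes had an r of 0.7 or above and 67 of 0.9 or above, whereas 23 had an r of -0.7 or below. The limit at 100 genes fell inside a continuous slope of values. The last genes inside it had r of -0.6261, -0.6260 and -0.6255, and the first genes outside -0.6250, -0.6247 and -0.6244. In all, 137 eligible genes had an r of -0.6 or below and 449 of -0.5 or below.

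**Figure D2:**
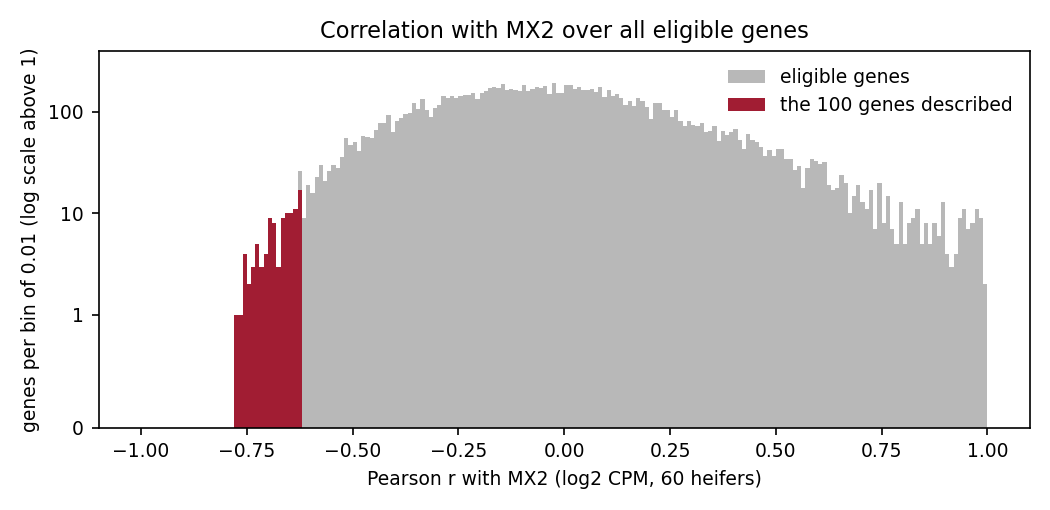
Number of eligible genes per bin of 0.01 in Pearson r with MX2 over 60 heifers, on a vertical axis that is logarithmic above 1, with the 100 genes in red. The red bars run from -0.777 to -0.626 and the positive side holds 67 genes at or above 0.9.

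The most negative r belonged to ENSBTAG00000021442 (r = -0.777, Spearman rho = -0.826, n = 60). Its abundance ranged from 10.2 to 36.3 CPM in CON_High (median 14.7), 11.3 to 34.2 CPM in CON_Low (median 18.9), 8.47 to 38.8 CPM in PUFA_High (median 17.6) and 9.61 to 46.1 CPM in PUFA_Low (median 18.5). The dietary groups overlapped throughout. Of the 14 heifers with the highest values, 10 were in the lower range of MX2. Its fitted level fell 2.65-fold from the lowest to the highest MX2, with a slope of -0.15 log2 CPM per log2 unit of MX2.

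The gene with the next most negative r, ENSBTAG00000015659 (r = -0.765), moved over a much narrower range. It lay between 68.5 and 102 CPM in CON_High (median 82.1), 68.1 and 113 CPM in CON_Low (median 83.8), 60.0 and 109 CPM in PUFA_High (median 80.0) and 73.3 and 108 CPM in PUFA_Low (median 85.6). Again the dietary groups overlapped and 10 of the 14 highest heifers were in the lower range of MX2. Its fitted fall was 1.36-fold, so nearly equal correlations went with falls of different size.

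**Figure D3:**
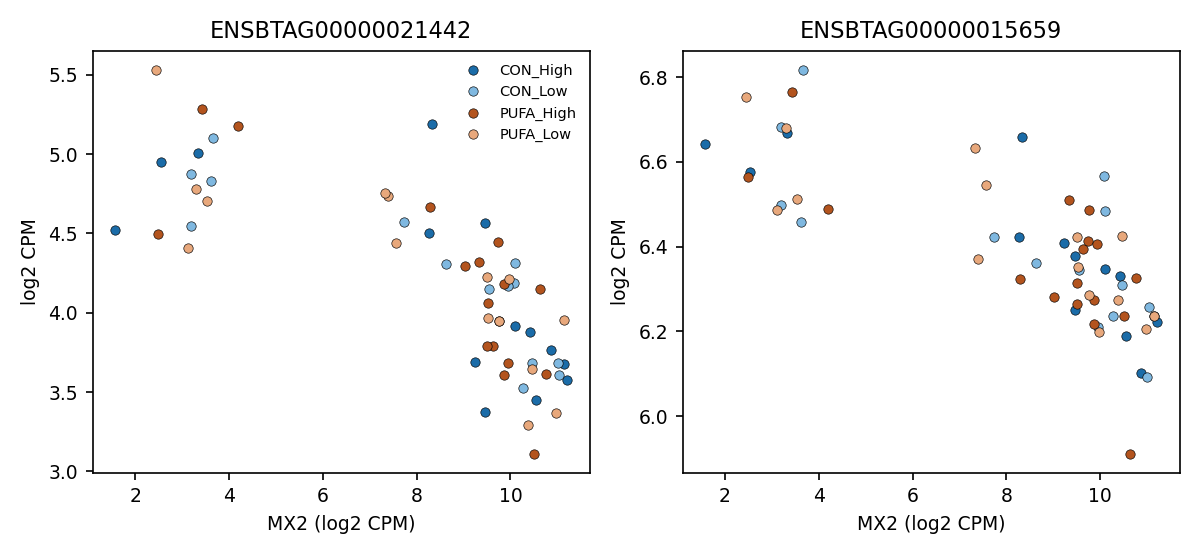
ENSBTAG00000021442 (left) and ENSBTAG00000015659 (right) in log2 CPM against MX2 in log2 CPM, with 1 point per heifer coloured by dietary group. For each gene 10 of the 14 highest heifers lie in the lower range of MX2, and the points decline further among heifers with MX2 from 7.33 upwards.

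Across the 100 genes the slope on MX2 had a median of -0.10 log2 CPM per log2 unit of MX2, from -0.28 to -0.03. Over the 9.64 log2 units that MX2 spanned, this came to a fitted fall of 1.24- to 6.38-fold, with a median of 1.89-fold. The fall was 2-fold or more in 44 genes, between 1.5- and 2-fold in 39 and smaller in 17. The median r of these classes was similar, at -0.669, -0.653 and -0.645, while their median SD over heifers was 0.61, 0.35 and 0.20 log2 units. The falls were thus much smaller than the rise of MX2 across the same heifers. Mean abundance of the genes ran from 1.23 to 9.34 log2 CPM (median 4.34, against 4.70 over the eligible genes). Their median biological coefficient of variation, estimated by edgeR within dietary groups, was 0.286, against 0.247 over all genes tested.

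The relation to MX2 held within the upper range of MX2 and was weaker within the lower. Among the 46 heifers of the upper range r was below 0 for all 100 genes (median -0.50, from -0.849 to -0.191), where 53.2% of the eligible genes were below 0. It reached -0.5 or below in 50 of the 100 genes, against 2.46% of the eligible genes. These heifers are part of the 60 on which the genes were chosen. Among the 14 heifers of the lower range the median was -0.204, from -0.755 to 0.804, where the eligible genes had a median of -0.003. Here 33 of the 100 genes were above 0, against 49.8% of the eligible genes. At -0.5 or below were 18 genes, against 16.5% of the eligible genes. ENSBTAG00000021442 had an r of -0.741 in the upper range and 0.276 in the lower, and ENSBTAG00000015659 of -0.610 and -0.162. Chosen again on the upper range alone, an alternative added after seeing the data, 26 of the 100 genes were kept. The list thus changed without the heifers of the lower range, which also leaves fewer heifers and a narrower span of MX2. Equal numbers of other heifers were not left out for comparison, so what changed the list was not tested.

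To follow the genes together, each gene was scaled to a mean of 0 and an SD of 1 over heifers and the 100 z-scores were averaged in each heifer. In the 14 heifers of the lower range this mean lay between 0.483 and 1.57, and 81 to 100 of the genes were above their own median. In the 8 heifers of the upper range with MX2 under 9 log2 CPM the mean lay between 0.004 and 0.893, with 50 to 95 genes above their own median. Across the whole upper range it went down to -1.36, and 11 of 46 heifers had a mean above 0. The mean z-score of the 2 ranges thus overlapped, between 0.483 and 0.893. It followed MX2 with an r of -0.906 over all heifers, -0.843 over the upper range and -0.381 over the lower, values that the choice of the genes favours.

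**Figure D4:**
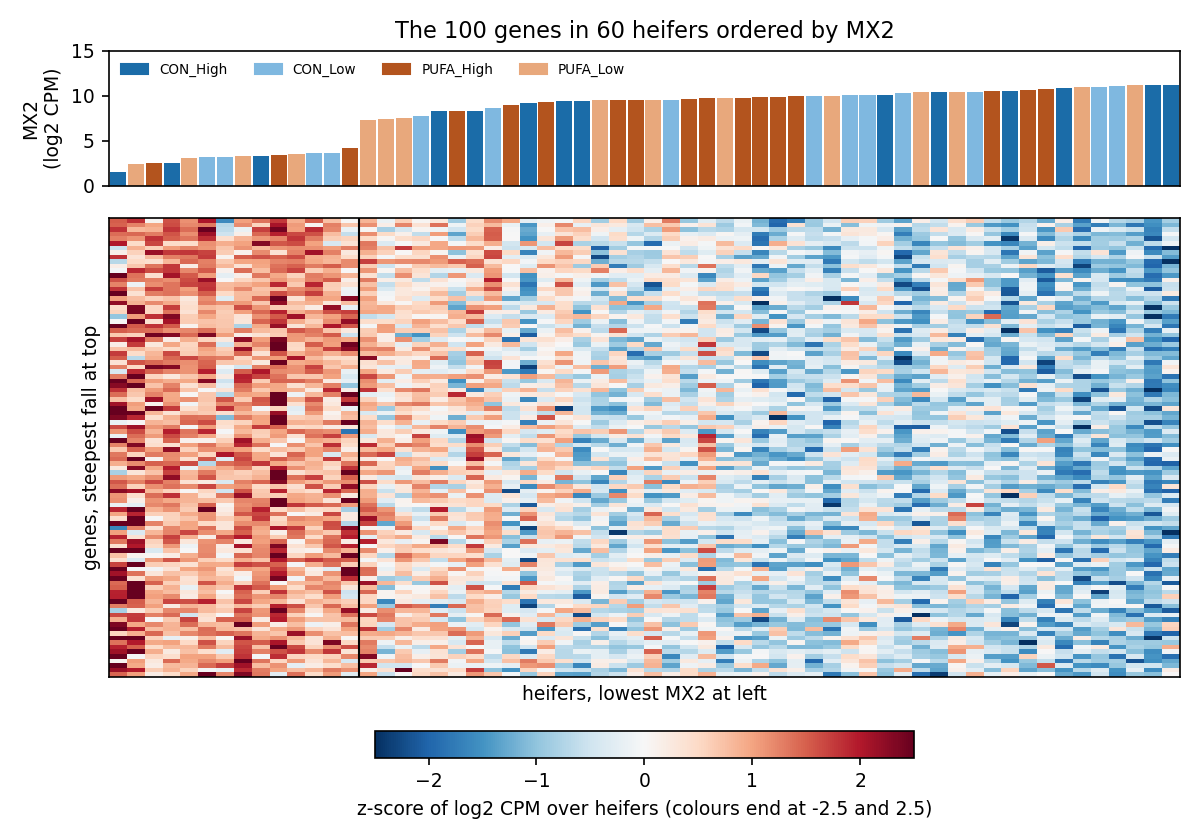
MX2 in log2 CPM (bars, coloured by dietary group) and the z-scores of log2 CPM of the 100 genes (rows, steepest fall at the top), with heifers in order of MX2 from left to right and a line after the 14 heifers of the lower range. The colours pass from red (above the mean) to blue (below it) with rising MX2, and the first heifers right of the line remain mostly red, with mean z-scores from 0.004 to 0.893 in the 8 heifers under 9 log2 CPM.

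In the dietary groups taken singly, r had a median of -0.707 in CON_High, -0.696 in CON_Low, -0.664 in PUFA_High and -0.729 in PUFA_Low. It was below 0 for all 100 genes in 3 of the groups and for 99 in PUFA_High, where the exception stood at 0.063. In all 4 groups at once, 99 of the 100 genes were below 0, against 21.7% of the eligible genes, and 75 were at -0.5 or below, against 1.05%. The median slope was -0.09 in CON_High, -0.08 in CON_Low, -0.10 in PUFA_High and -0.10 in PUFA_Low. No test of a difference between these slopes is given, since the relation to MX2 in the same heifers chose the genes.

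The libraries also carry codes with 1 of 6 prefixes (JE1 to JE6, 10 heifers each), whose meaning the labels do not give. Within prefixes the median r ran from -0.625 in JE1 to -0.802 in JE6. In each prefix 98 to 100 of the genes were below 0, against 50.4% to 53.9% of the eligible genes. Without the 2 heifers farthest from the median of MX2 (CON_High replicate 9 and PUFA_Low replicate 10) r ran from -0.773 to -0.541. All 100 genes were below 0 under RLE, upper-quartile and no scale factors as well. All of these values come from the heifers that chose the genes, which favours a negative r, so they describe the list only.

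Pairs of the 100 genes correlated with each other at a median r of 0.545 (0.134 to 0.925 over 4950 pairs), where the median over pairs of eligible genes was -0.006. The heifers, their libraries and the shared relation to MX2 are common to all these pairs. With MX2 regressed out, the median was 0.169, and 80.4% of the pairs were above 0. In these residuals 20 pairs, made up of 28 genes, had an r of 0.7 or above, and 4 pairs of 0.8 or above. The first principal component took up 55.3% of the variance of the 100 genes before and 20.1% after MX2 was regressed out. Among measures of the library, the median r of the 100 genes was -0.081 with total counts, -0.105 with the number of genes detected and 0.096 with the share of counts on the 100 most abundant genes, the last running from -0.352 to 0.615.

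Whether diet altered the 100 genes was asked in 7 comparisons fitted over all 14363 genes. The rule did not use the diets but did use the same values. Mean MX2 did not differ detectably between the groups. Genes chosen for following MX2 may then have less of their variance left for diet, which was not tested. Counts of the 100 genes below the share of all genes are therefore given as a description, and nothing is read from the gap. A gene counted as changed at an adjusted p under 0.10 (edgeR's quasi-likelihood F test, p-values adjusted after Benjamini and Hochberg), and as a differentially expressed gene (DEG) if its fold change was also above 1.5. None of the 100 was a DEG in any of the 7 comparisons by edgeR or DESeq2, where edgeR made 5.61% of all genes DEG for plane in n-3 PUFA heifers, 2.57% for n-3 PUFA on the low plane, 8.04% for the interaction, 0.369% for the average plane effect and 0% in the other 3. By edgeR an unadjusted p under 0.05 was found for 4 of the 100 genes (10.5% of all genes) for n-3 PUFA on the high plane, 4 (26.5%) for n-3 PUFA on the low plane, 0 (4.91%) for plane in control heifers and 17 (35.6%) for plane in n-3 PUFA heifers. It was found for 2 (29.1% of all genes) in the interaction, 2 (8.79%) in the average n-3 PUFA effect and 4 (17.1%) in the average plane effect. The comparisons share groups and are not independent of each other.

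On the high plane, 0 of the 100 genes changed between PUFA_High and CON_High heifers, where 0% of all genes did. Their median log2 fold change was -0.05 (from -0.63 to 0.46, smallest adjusted p = 0.459 by edgeR), against -0.001 over all genes. Between the planes in control heifers, too, 0 of the 100 genes and 0% of all genes changed, with a median log2 fold change of 0.02 (from -0.51 to 0.35). DESeq2 called 0 of the 100 in both comparisons.

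On the low plane, 0 of the 100 genes changed between PUFA_Low and CON_Low heifers, against a background of 17.5% of all genes. Their median log2 fold change was 0.03, from -0.76 to 0.45, with a smallest adjusted p of 0.147 (edgeR). DESeq2 likewise called 0 of the 100, and 2748 of all genes. The edgeR count among the 100 was 1 without PUFA_Low replicate 3 or PUFA_High replicate 11 and 2 without PUFA_Low replicate 9. Over all genes it ran from 1794 to 3304 when single heifers were left out. The interaction, which asks whether the plane effect differed between supplements, gave 0 of the 100 by edgeR, against 20.8% of all genes. DESeq2 gave 0 of the 100 and 3200 of all genes. By edgeR the interaction gave 1 of the 100 without CON_Low replicate 11, CON_High replicate 9 or PUFA_Low replicate 11. Over all genes it gave 2138 to 3731 when single heifers were left out. By edgeR the average n-3 PUFA effect gave 0 of the 100 and 0% of all genes, and the average plane effect 0 of the 100 and 4.86%. DESeq2 gave 0 of the 100 in both, with 0 of all genes for the average n-3 PUFA effect and 866 for the average plane effect.

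The plane of nutrition in n-3 PUFA heifers was the comparison in which members of the list changed. Of the 100 genes 11 passed the threshold, with 10 higher and 1 lower in PUFA_Low, against a background of 31.3% of all genes (15% higher and 16.3% lower). Log2 fold changes were above 0 for 68 of the 100 genes and 46.1% of all genes, with a median of 0.09 (from -0.50 to 0.69), against -0.03 over all genes. Mean MX2, on which the 100 genes have negative slopes by choice, was 0.86 log2 units lower in PUFA_Low than in PUFA_High as a mean of log2 CPM, and -0.09 (SE 0.73, adjusted p = 0.946) as edgeR's log2 fold change of mean abundance. Neither differed beyond the spread between heifers. With MX2 as a covariate, log2 fold changes were above 0 for 45 of the 100 genes, with a median of -0.03. The lower mean MX2 of PUFA_Low and the negative slopes fix this direction by construction, so nothing is read from the shift. The 10 genes that rose did so by 0.21 to 0.42 on the log2 scale, and the 1 that fell by 0.28, so none of these changes reached 1.5-fold. Under RLE factors 11 rose and 1 fell, and under upper-quartile factors 15 rose and 1 fell. Of all genes that passed, 47.9% were higher under TMM, 48.0% under RLE and 57.2% under upper-quartile factors, which moved the median log2 fold change of all genes from -0.029 to 0.003.

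Of the genes that rose, ENSBTAG00000033453 had the smallest p. It ranged from 258 to 528 CPM in PUFA_Low (median 328) and from 248 to 380 CPM in PUFA_High (median 298). In control heifers it ranged from 275 to 365 CPM in CON_Low (median 316) and from 212 to 491 CPM in CON_High (median 301). The n-3 PUFA groups overlapped between 258 and 380 CPM, and the log2 fold change was 0.24 (SE 0.08, adjusted p = 0.0272 by edgeR).

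For ENSBTAG00000037549 the range was 10.4 to 23.1 CPM in PUFA_Low (median 15.6) and 9.27 to 20.2 CPM in PUFA_High (median 11.6). It was 9.99 to 21.7 CPM in CON_Low (median 15.1) and 8.20 to 21.8 CPM in CON_High (median 13.9). PUFA_High had the lowest median of the 4 overlapping groups, and the log2 fold change between planes in n-3 PUFA heifers was 0.35 (SE 0.13, adjusted p = 0.0349 by edgeR).

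The gene that fell, ENSBTAG00000002292, ranged from 67.2 to 117 CPM in PUFA_Low (median 96.8) and from 86.8 to 179 CPM in PUFA_High (median 109). In controls it ranged from 90.9 to 139 CPM in CON_Low (median 105) and from 76.6 to 226 CPM in CON_High (median 108). PUFA_Low lay lowest with overlap, and the log2 fold change was -0.28 (SE 0.11, adjusted p = 0.0428 by edgeR). None of these 3 genes passed the interaction test without a covariate, with adjusted p of 0.185, 0.200 and 0.314 by edgeR. A difference in plane effect between supplements was not shown in that fit. With MX2 as a covariate, ENSBTAG00000002292 lay past the threshold in the interaction (log2 fold change -0.29, adjusted p = 0.0523 by edgeR). It also did for n-3 PUFA on the low plane (0.0452) and the average plane effect (0.0381). ENSBTAG00000033453 and ENSBTAG00000037549 did not in any of these. The fit with MX2 is a description and not a test for genes chosen by MX2. Within the library code prefixes, each of which holds few n-3 PUFA heifers per plane, the gene that fell was lower on the low plane in all 6. Each of the other genes was higher in 5 of 6. All 3 kept an adjusted p under 0.10 by edgeR when any single heifer was left out. The 3 genes were picked for their small p between planes in these same n-3 PUFA heifers. That choice favours such signs and p-values, so nothing is read from them.

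The count of 11 depended on single heifers. It was 3 without PUFA_Low replicate 10, 4 without PUFA_High replicate 6, 6 without PUFA_Low replicate 8 or PUFA_High replicate 7, and 7 without PUFA_Low replicate 2 or PUFA_High replicate 2, 8, 9, 13 or 17. It was 17 without PUFA_Low replicate 4 or 11 and 18 without PUFA_High replicate 11. Over all 14363 genes the count ran from 3659 (without PUFA_Low replicate 10) to 5110 (without PUFA_High replicate 4). With the planes exchanged this comparison keeps its calls and turns its direction by construction.

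A further measure moved with this comparison. On average the 100 most abundant genes held 25.8% of the counts of PUFA_Low and 20.8% of those of PUFA_High heifers, 4.92 percentage points apart (p = 4e-05 in a two-sided permutation test, 0.00064 after adjustment over the 16 tests). The r of the 10 higher genes with this share ran from 0.222 to 0.615 (median 0.445), against a median of 0.096 over the 100 genes. That of the lower gene was -0.182. These genes were picked for differing between groups whose share also differed, which favours such values, so nothing is read from them. What links the share to the genes was not tested. With the share as a covariate, 0 of the 100 genes and 131 of all genes passed for the same comparison (edgeR). The log2 fold change was then -0.000945 for ENSBTAG00000033453, 0.005 for ENSBTAG00000037549 and -0.33 for ENSBTAG00000002292.

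Since MX2 varied far more between heifers than between groups, the comparisons were repeated with log2 CPM of MX2 as a covariate, so that diets were compared at equal MX2. For plane in n-3 PUFA heifers the median SE of the log2 fold changes of the 100 genes went from 0.15 to 0.11. The genes were chosen for their fit to MX2 in these same heifers, which shrinks this spread by selection, so the counts and fold changes at equal MX2 are a description and not a test of the 100 genes. At equal MX2, 18 of the 100 genes lay past the same threshold, 6 higher and 12 lower, where 34.6% of all genes did (16% higher and 18.6% lower). Of the 11 genes above, 7 were among the 18, 4 were not, and 11 were added. Log2 fold changes were above 0 for 45 genes instead of 68, 23 changed sign, and the median was -0.03, equal to that of all genes. These genes were chosen for a negative slope on MX2 and mean MX2 was lower in PUFA_Low, so the covariate lowers their fold changes by construction and nothing is read from the shift. For ENSBTAG00000002292 the log2 fold change was -0.34, for ENSBTAG00000033453 0.20 and for ENSBTAG00000037549 0.29.

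**Figure D5:**
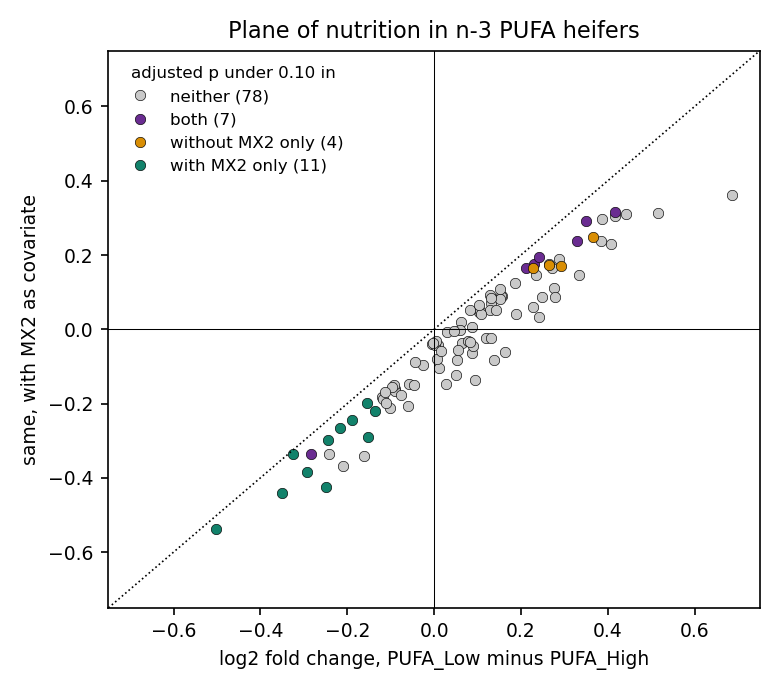
Log2 fold change between PUFA_Low and PUFA_High heifers of each of the 100 genes without (horizontal) and with MX2 as a covariate (vertical), coloured by the fits in which the adjusted p was under 0.10, with a dotted line of equality. Nearly all points lie below the line, which the choice of the genes and the lower mean MX2 of PUFA_Low fix, and 7 genes pass in both fits, 4 without MX2 alone and 11 with MX2 alone.

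On the low plane at equal MX2, 7 of the 100 genes lay past the threshold between n-3 PUFA and control heifers, 1 higher and 6 lower, where 20.3% of all genes did (10.9% higher and 9.33% lower). The same limit holds here, and mean MX2 was lower in PUFA_Low than in CON_Low by 0.27 log2 units, which pushes the fold changes of the 100 genes down in this fit. Of the 7, 1 was past the fold for a DEG (2.65% of all genes), ENSBTAG00000008437, which is named for that reason after its values were seen. It is a gene of low abundance whose medians were 3.61 CPM in PUFA_Low (1.30 to 11.8) and 5.55 CPM in CON_Low (1.90 to 23.7). Medians on the high plane were 3.49 CPM in PUFA_High (1.79 to 22.7) and 6.25 CPM in CON_High (1.53 to 15.4), and all groups overlapped. Its log2 fold change on the low plane was -0.83 (SE 0.23) at equal MX2. Without MX2 it was -0.76 (SE 0.35, adjusted p = 0.147 by edgeR), and the gene did not pass. PUFA_Low libraries also held 3.95 percentage points more of their counts on the 100 most abundant genes than CON_Low libraries (permutation test, 0.00832 after adjustment) and had fewer genes detected (a mean of 16561 against 16719.5, 0.0195 after adjustment), and the part of either in these 7 values was not tested. The interaction at equal MX2 gave 6 of the 100 genes, all below 0, against 23.7% of all genes (10.8% below 0), and the average plane effect gave 3, all lower, against 5.7% (3.21% lower). Mean MX2 was lower on the low plane by 0.86 log2 units in n-3 PUFA and 0.29 in control heifers, so the covariate pushes the fold changes of the 100 genes down in these comparisons too, by construction, and nothing is read from their direction. No other of the 7 comparisons gave a DEG among the 100 at equal MX2, where 5.81% (plane, n-3 PUFA heifers), 8.65% (interaction), 0.313% (average plane) and 0% (the other 3) of all genes were DEG. The remaining 3 comparisons gave 0 of the 100 genes and 0% of all genes at equal MX2, with an unadjusted p under 0.05 by edgeR in 11 of the 100 genes (11.4% of all genes) for n-3 PUFA on the high plane, 6 (5.26%) for plane in control heifers and 12 (9.62%) for the average n-3 PUFA effect. In the other 4 it was 15 (28.8%) for n-3 PUFA on the low plane, 26 (38.4%) for plane in n-3 PUFA heifers, 17 (31.2%) in the interaction and 10 (18.2%) in the average plane effect. DESeq2 was not run with this covariate.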

How the data were processed

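Per the labels, the authors used CASAVA 1.4, TopHat2 2.0.9 and HTSeq 0.5.4p5 with the UMD3.1 genome, and deposited raw read counts per Ensembl gene for all 60 heifers without normalisation. Whether counting used strand is not given in the sources used here. No column was left unused.

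The 100 genes, the lists and the tests were chosen with earlier results of these data known. In R 4.3.3, edgeR 4.0.16 filtered the deposited counts by filterByExpr (14363 genes), computed TMM factors and fitted its quasi-likelihood model to all heifers, the dietary group being the only factor. Benjamini-Hochberg adjustment covered all genes tested in a comparison. SE were derived from the F statistic. Alternatives were other scale factors, filters and thresholds, DESeq2 1.42.0, blocks, covariates, exchanged planes and leaving out each heifer. Library measures and MX2 were compared by permutation tests with 100000 resamples. The models were also run on simulated data, from which no result is given here. The 423 pairs of libraries within groups held no repeated deposit (smallest chi-square per gene 14.8).

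Genes were to be named by symbol. The RefSeq table used (37063 genes) matched 0 identifiers, so the 2 most negative r and, in the comparison with changed genes, the smallest p-values (at most 2 higher and 2 lower) are given by identifier, and the planned gene lists, cell type markers and sequences were not used here.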

Additional observations from a re-analysis of the deposited data

How the results depend on the processing

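The 11 members changed between planes in n-3 PUFA heifers were 12 with RLE and 16 with upper-quartile factors, 14 at 10 or more counts in every library, 9 with the code prefix as a block and 13 by DESeq2. They were 7 with all genes counted at least once and 0 at an adjusted p under 0.001. They were 0 with the share of abundant genes as a covariate, 18 with MX2 as a covariate and 3 to 18 without single heifers. Over all genes the counts were 4505 with RLE and 4442 with upper-quartile factors, and 4315 at 10 or more counts in every library. The code prefix as a block gave 4159, DESeq2 4665, all genes counted at least once 4235 and MX2 as a covariate 4969. An adjusted p under 0.001 left 500, the share as a covariate 131, and single heifers left out 3659 to 5110. MX2 as a covariate also gave 7 members (1 DEG) for n-3 PUFA on the low plane, 6 in the interaction and 3 in the average plane effect. The same fits gave 2912, 3409 and 818 of all genes. Without single heifers, members changed numbered 0 to 2 for n-3 PUFA on the low plane (1794 to 3304 of all genes). For the interaction they numbered 0 to 1 (2138 to 3731 of all genes). Member DEG then numbered 0 to 1 for n-3 PUFA on the low plane and for plane in n-3 PUFA heifers. DEG over all genes were not counted in these fits, so nothing is read from these numbers.

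The labels number the heifers but do not say that numbers pair them, and deviations of same-numbered heifers from their group means had a mean r of -0.053 (85 pairs), against 0.005 for other pairs. With replicate number as a block, 3 members and 3351 of all genes changed between planes in n-3 PUFA heifers, against 11 and 4493 without it. The block left 1657 of all genes in the interaction and 340 in the average plane effect. It moved no other count by over 1.5 times.

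Over all genes, changes numbered 0 (n-3 PUFA, high plane), 2517 (n-3 PUFA, low plane), 0 (plane, control), 4493 (plane, n-3 PUFA), 2982 (interaction), 0 (average n-3 PUFA) and 698 (average plane). Counting all genes with at least 1 count gave 35 for n-3 PUFA on the high plane and 3 for plane in controls. An adjusted p under 0.001 left 48 for n-3 PUFA on the low plane, 500 for plane in n-3 PUFA heifers, 0 in the interaction and 2 in the average plane effect. The share as a covariate left 0, 131, 0 and 384 in the same comparisons. Exchanged planes gave 826 for n-3 PUFA on the high plane, 6 on the low plane, 698 in the interaction and 2982 in the average plane effect. DESeq2 gave 2 for n-3 PUFA on the high plane. Without single heifers there were 0 to 32 for n-3 PUFA on the high plane, 0 to 1 for average n-3 PUFA and 440 to 1118 for the average plane. Except for the exchange, which relabels heifers, and the stricter threshold, the causes were not tested.

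With the share as a covariate, the log2 fold changes between planes lay near 0 for ENSBTAG00000033453 (-0.000945, adjusted p = 0.998 by edgeR) and ENSBTAG00000037549 (0.005, 0.995). That of ENSBTAG00000002292 was -0.33 (0.271). The exchange turned the sign for ENSBTAG00000033453 (-0.24), ENSBTAG00000037549 (-0.35) and ENSBTAG00000002292 (0.28).

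Of the 100 genes, 69 were chosen again with Spearman rho, 86 on residuals from group means, 95 with RLE and 91 with upper-quartile factors, 99 and 98 with prior counts of 0.5 and 5, 72 with the share regressed out, 92 with the mean of the 20 most positive genes in place of MX2, 26 on the upper range of MX2 alone, and 71 (without CON_High replicate 9) to 99 without single heifers. The planned replacement of MX2 by a list of interferon-stimulated genes was not run, as identifiers could not be paired with names. At 3 to 9 counts in single libraries of 4 of the 100 genes, depth limits their values there.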
